A study of Mus musculus with 8 samples.

Results

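The replication-dependent histone genes of the mouse were followed in lists of open chromatin from BV2 cells, an immortalised mouse microglial line. All protein-coding genes of the GRCm38.p6 RefSeq table that carry, or once carried, a Hist1h, Hist2h, Hist3h or Hist4h symbol were taken, which gave 67 genes of 21887 protein-coding genes on chromosomes 1 to 19, X and Y. Of these, 63 match by their current symbol and 4 (H4f16, H2bu2, H2aw and H4bc24) only by the older one. H4bc24 was counted as an H2B gene, as its older name gives it. By histone, 6 encode the linker histone H1, 18 encode H2A, 18 H2B, 12 H3 and 13 H4. The rule uses gene names and no measured value.

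Open chromatin was mapped by ATAC-seq: the enzyme Tn5 cuts accessible DNA and tags the cut ends for sequencing. The labels give 4 groups of 2 biological replicates: BV2 monoculture at 21% oxygen (normoxia), BV2 monoculture below 0.1% oxygen (hypoxia), BV2 grown on GL261 mouse glioma cells at 21% oxygen, and the same co-culture below 0.1% oxygen, each for 16 h. BV2 cells were co-seeded at 1 to 2 GL261 cells, all cells were fixed with 1% formaldehyde (hypoxic cells before their return to air), and per the labels CD45+ or GFP+ cells were sorted and 50000 cells entered each reaction. BV2 is 1 cell line, so the replicates share a genotype, and the labels say neither which sort was used for which library nor which cultures were run together.

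Replication-dependent histone genes supply the core histones and H1 that package new DNA. They are short and intronless, lie in clusters, and are transcribed mainly in S phase under the coactivator NPAT at nuclear histone locus bodies. Their messages end in a stem-loop bound by SLBP in place of a poly(A) tail. Neighbouring H2A and H2B genes are often divergent and share the DNA between their start sites, and the same genes of 1 cluster can be near copies of each other.

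The 67 genes fell into 5 loci. The largest, on chromosome 13 from 23531044 to 23934913, held 31 genes, and a second on chromosome 13 from 21715711 to 22043658 held 23. The chromosome 3 cluster (96219885 to 96270192) held 10 genes, the chromosome 11 locus (58948911 to 58955192) held H2bu2 and H2aw, and H4f16 lay alone on chromosome 6 (136803993 to 136804431).

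The upstream sequences of the genes that moved in rank with oxygen, together with H4c18 as a near copy of H4c17 and H2bc12 as an example of an H2A and H2B pair, show how class-specific these promoters are. Each is the 150 bases before the start site, 5′ to 3′, from the RefSeq promoter table of GRCm38.p6. Capitals mark CCAAT (the NF-Y site), TATAAA, the octamer ATTTGCAT (the Oct-1 site), AAACACA (the H1 box) and GGTCCG (the core of H4 site II), on either strand. H1f2 is at chr13:23738657-23738806 on the plus strand, H1f4 at chr13:23622559-23622708 on the minus strand, H2bc6 at chr13:23621095-23621244 on the minus strand, H4f16 at chr6:136804432-136804581 on the minus strand and H4c11 at chr13:21734884-21735033 on the plus strand. H2ac23 is at chr13:21810217-21810366 on the plus strand, H4c17 at chr13:21811596-21811745 on the plus strand, H4c18 at chr13:21832198-21832347 on the minus strand and H2bc12 at chr13:22035671-22035820 on the plus strand.
H1f2: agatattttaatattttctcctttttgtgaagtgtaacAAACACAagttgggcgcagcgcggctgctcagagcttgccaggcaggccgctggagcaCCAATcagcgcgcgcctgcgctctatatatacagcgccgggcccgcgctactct
H1f4: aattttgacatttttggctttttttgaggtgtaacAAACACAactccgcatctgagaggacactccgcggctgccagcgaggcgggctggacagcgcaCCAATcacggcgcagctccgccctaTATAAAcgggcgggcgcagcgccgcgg
H2bc6: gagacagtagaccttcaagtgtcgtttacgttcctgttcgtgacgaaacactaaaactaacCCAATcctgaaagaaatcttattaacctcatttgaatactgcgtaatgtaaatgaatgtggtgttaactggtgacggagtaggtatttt
H4f16: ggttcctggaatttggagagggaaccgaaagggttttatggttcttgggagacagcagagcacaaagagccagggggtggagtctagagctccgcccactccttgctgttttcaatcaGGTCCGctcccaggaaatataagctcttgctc
H4c11: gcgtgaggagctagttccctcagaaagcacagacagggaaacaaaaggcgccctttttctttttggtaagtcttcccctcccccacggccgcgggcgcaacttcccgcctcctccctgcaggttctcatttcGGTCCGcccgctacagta
H2ac23: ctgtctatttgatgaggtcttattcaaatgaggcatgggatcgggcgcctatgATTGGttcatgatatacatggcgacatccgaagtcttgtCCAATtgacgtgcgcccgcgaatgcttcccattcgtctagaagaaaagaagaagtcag
H4c17: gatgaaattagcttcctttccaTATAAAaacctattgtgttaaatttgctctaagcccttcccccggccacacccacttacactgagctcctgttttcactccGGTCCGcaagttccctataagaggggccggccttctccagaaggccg
H4c18: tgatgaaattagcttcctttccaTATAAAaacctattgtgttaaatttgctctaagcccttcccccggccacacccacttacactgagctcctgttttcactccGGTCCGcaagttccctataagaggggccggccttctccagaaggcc
H2bc12: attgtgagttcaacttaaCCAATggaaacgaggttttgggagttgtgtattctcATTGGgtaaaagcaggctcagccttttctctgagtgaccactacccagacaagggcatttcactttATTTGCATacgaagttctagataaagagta

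Over the 250 bases upstream, a promoter entry was found for 62 of the 67 genes, and 17492 protein-coding promoters served for comparison. CCAAT was present in 51 of the 62 (82.3%) against 36.5% of all promoters, in all 6 H1, 18 H2A and 16 H2B promoters but in 3 of 12 H4 promoters. TATAAA was in 29 (46.8% against 12.4%). The octamer was in 13 (21.0% against 1.62%), of which 7 were H2A and 6 H2B genes. The H1 box was in 9 (14.5% against 5.45%), 5 of them H1 genes, and GGTCCG in 11 (17.7% against 8.52%), 9 of them H4 genes. The core of the hypoxia-inducible factor site, searched as ACGTG or GCGTG on both strands, was in 25 (40.3%), close to the 43.9% of all promoters. These are matches of letters, given as a description.

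H4c17 and H4c18 shared a run of 249 bases of the 250, part of which is in their printed sequences, and H2bc23 and H4bc24 shared all 250. In all, 10 of the 62 promoters shared a run of at least 100 bases with another histone gene (also H3c14 with H3c15, H2ac18 with H2ac19, H2ac24 with H2bc23 and H2ac23 with H4bc24). Reads from such copies may not have been placed uniquely, and how the authors filtered them is not given in the sources used here, so values at these genes are uncertain.

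A gene was counted as having a peak in a library when a peak of that library's list overlapped the 1 kb around either gene end. Histone genes had such a peak far more often than other genes. In monoculture normoxia, 58 and 49 of the 67 had a peak (86.6% and 73.1%), against 26.1% and 21.6% of all protein-coding genes. In monoculture hypoxia the counts were 53 and 55 (79.1% and 82.1%, against 36.5% and 36.7%). In co-culture they were 62 and 61 in normoxia (92.5% and 91.0%, against 39.0% and 41.2%) and 63 and 56 in hypoxia (94.0% and 83.6%, against 43.9% and 41.4%). A total of 43 genes (64.2%) had a peak in all 8 libraries, against 17.4% of protein-coding genes, and 2 (2.99%) had none in any, against 50.8%. The 2 without a peak were H2ac1 and H2bc1, the testis-specific H2A and H2B variants, which lie at the end of the largest cluster.

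By class, the genes with a peak in all libraries were 4 of 6 for H1, 11 of 18 for H2A, 13 of 18 for H2B, 6 of 12 for H3 and 9 of 13 for H4. The 10 replication-independent histone genes of a list used for comparison had a peak less widely, from 2 to 7 per library, and 2 of them in all 8. The 6 other protein-coding genes inside the largest cluster, among them Hfe and the Slc17a transporters, had 0 to 2 with a peak per library, beside 24 to 29 of the 31 histone genes there. In the second chromosome 13 cluster, 1 to 3 of the 3 others (Zfp184, Pom121l2 and Prss16) had one per library, and at the chromosome 11 locus Trim17 had one in 5 of 8 libraries. Peaks of that interval away from gene ends were not counted.

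**Figure D1:**
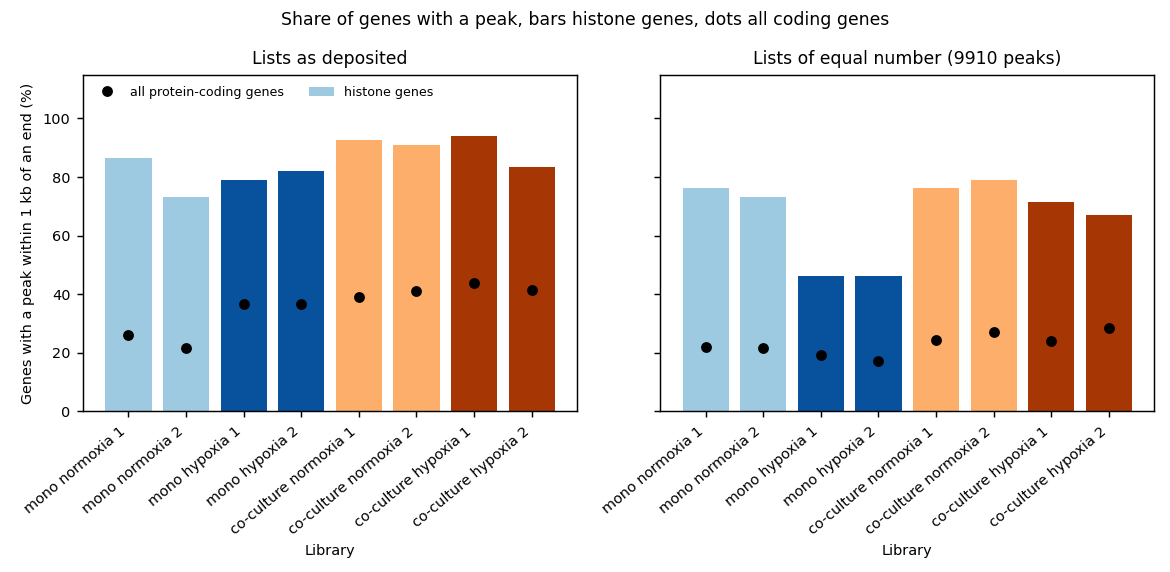
Percent of the 67 histone genes (bars, coloured by group) and of all protein-coding genes (dots) with a peak within 1 kb of an end, for each library on the horizontal axis; the left panel uses the lists as deposited and the right panel the 9910 peaks of highest −log10 p in each list. The left bars lie between 73.1% and 94.0%, and in the right panel both monoculture hypoxia bars stand at 46.3%.

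Neighbouring genes were often read through the same peak. In each library the best peaks of all histone genes were 31 to 42 distinct peaks, and 33 to 48 genes shared theirs with another histone gene. Of 10 divergent pairs with start sites 164 to 281 bp apart, each an H2A with an H2B gene, 6 had the same best peak in all 8 libraries (H2ac13 with H2bc13, H2ac15 with H2bc15, H2ac12 with H2bc12, H2ac11 with H2bc11, H2ac8 with H2bc8 and H2ac7 with H2bc7). Such genes carry 1 measurement, and counts of genes below overstate the number of independent sites.

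Peak strength was read as a list percentile, the percent of a library's peaks whose −log10 p is no higher than that of the gene's best peak. The median over histone genes with a peak was 65.8 and 57.5 in monoculture normoxia, 61.7 and 68.0 in monoculture hypoxia, 78.7 and 75.3 in co-culture normoxia, and 83.6 and 82.6 in co-culture hypoxia. Over all protein-coding genes with a peak, the medians were 61.2, 61.9, 61.7, 59.9, 67.4, 70.3, 71.3 and 73.0 in the same order. Histone peaks in monoculture were therefore near the level of other gene-end peaks, and the co-culture values of both sets were higher. List percentiles depend on list length, which ran from 9910 to 29658 peaks.

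By its lowest list percentile over the 8 libraries, the most highly placed histone peak was shared by H4c18, an H4 gene, and H2ac24, an H2A gene, with list percentiles of 98.5, 92.1, 95.6, 91.1, 99.5, 97.9, 97.2 and 92.5 in the order above. The next H2A gene by the same measure, H2ac15, and its divergent partner H2bc15 were at 73.3, 73.6, 89.6, 86.1, 87.3, 97.9, 96.3 and 95.2. In single libraries other genes stood higher, such as H2bc9 at 95.1 in monoculture hypoxia replicate 2. Both loci were in the upper part of every list, although the value of 97.9 belongs to a very wide peak described below. In the 7 other libraries the summit of the H4c18 and H2ac24 peak lay 34 to 39 bp downstream of the H4c18 start site. From the H2ac24 start site it was 1312 to 1317 bp, past the end of that gene, so the H2ac24 value is read at the H4c18 start. H2bc6 and H1f4, which share a peak, were at 84.2, 89.6, 93.1, 84.1, 98.7, 95.2, 88.6 and 74.8.

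Among H3 genes, H3c6 stayed between 68.3 and 91.4 and H3c7 between 65.7 and 95.1. H4c3 ranged from 59.1 to 89.9. The linker histone gene H1f3 was lower, at 31.5, 51.3, 44.1, 29.8, 73.7, 60.4, 37.0 and 34.4, with both co-culture normoxia libraries above the other 6.

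Another 8 genes had a peak of their own in 1 to 7 libraries. H2ac19, an H2A gene of chromosome 3 with a near copy in H2ac18, had a peak in 4 libraries (36.0 in monoculture hypoxia replicate 2, 41.4 in co-culture normoxia replicate 2, 74.3 and 82.7 in co-culture hypoxia). H2aw on chromosome 11 had one in 5 libraries, at 25.3 in monoculture hypoxia replicate 1 and at 60.0, 55.0, 76.9 and 68.4 in the co-culture libraries. Its neighbour H2bu2 had a peak in 3 libraries, all co-culture (41.6 at the highest). The chromosome 11 locus was open in every co-culture library and in 1 of the 4 monoculture libraries.

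H4c8 had a peak in all libraries but those of monoculture hypoxia, at 19.1 and 72.2 in monoculture normoxia, 65.2 and 54.8 in co-culture normoxia, and 33.8 and 21.3 in co-culture hypoxia. H4c2 lacked one only in co-culture hypoxia replicate 2 and lay between 26.3 and 65.2 elsewhere. H4c9 had a peak in 4 libraries (8.29 to 48.5), H3c15 in 3 (2.18 to 32.9) and H3c4 in 2 (9.59 and 47.7). The highest values of these genes ran from 32.9 for H3c15 to 82.7 for H2ac19, so some were mid-list sites where they had a peak. A gene absent from a list is one with no peak past the authors' threshold there.

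**Figure D2:**
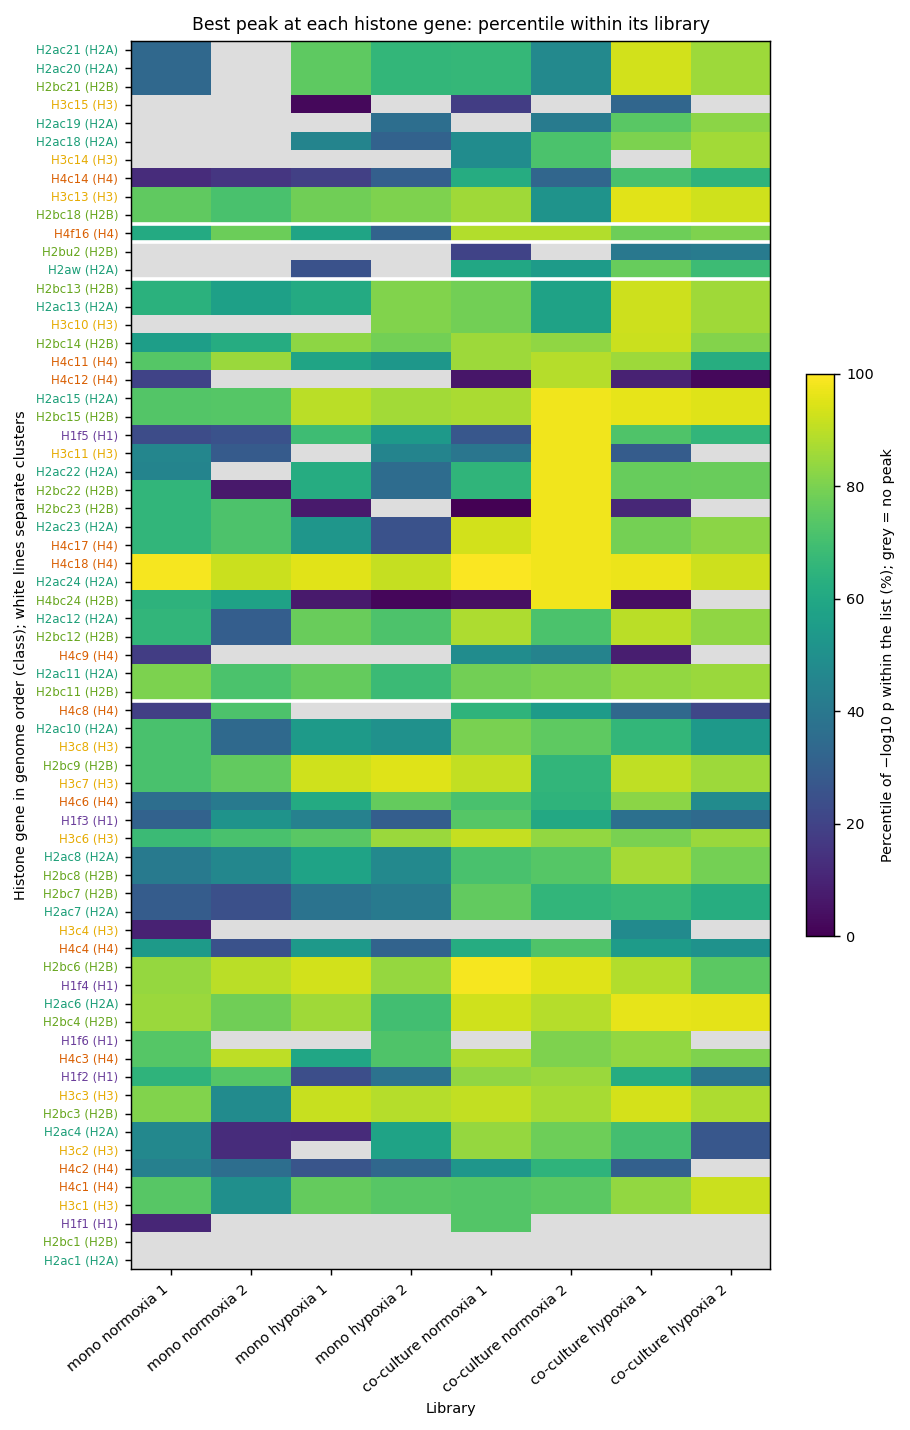
List percentile of the best peak (colour, percent of the library's peaks with no higher −log10 p; grey, no peak) for the 67 histone genes in genome order down the vertical axis, with symbols coloured by class, in the 8 libraries. Runs of equal colour are genes that share a peak; the block at 97.9 in co-culture normoxia replicate 2 is 1 wide peak, and H2bc1 and H2ac1 are grey in every library.

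Very wide peaks covered part of the second chromosome 13 cluster. In co-culture normoxia replicate 2, 1 peak of 245358 bp was the best peak of 12 histone genes, and 14 genes in all had a best peak wider than 10 kb. In the other 7 libraries that number was 0 to 5. Within this peak the values of H2ac15, H2bc15, H1f5, H3c11, H2ac22, H2bc22, H2bc23, H2ac23, H4c17, H4c18, H2ac24 and H4bc24 in that library are those of 1 interval and not of each gene. The depth of the libraries is unknown because the lists hold no read totals.

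The first comparison asks what low oxygen does to these genes. The number of histone genes with a peak was 0.75 lower in hypoxia than in normoxia (mean of the within-culture differences of +0.5 in monoculture and −2 in co-culture), well within the pooled SD between replicates of 4.11 genes. Over the same libraries the share of all protein-coding genes with a peak rose by 7.68 percentage points, while that of histone genes fell by 1.12 points. No histone gene was present in all 4 hypoxic libraries and absent from all 4 normoxic ones (0.288% of protein-coding genes), or the reverse (0.00914%). Without peaks wider than 10 kb the difference was +4 genes.

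Within monoculture, H2ac18 was gained (a peak in both hypoxic and no normoxic library, 6.73% of protein-coding genes) and H4c8 was lost (0.11% of protein-coding genes). In co-culture none was gained or lost (background 1.79% and 0.553%). The monoculture background reflects lists of 13333 and 9910 peaks in normoxia against 24370 and 26339 in hypoxia.

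Because of that difference in length, the lists were also compared at equal number, with the 9910 highest peaks of each. The histone genes with a peak then numbered 51 and 49 in monoculture normoxia, 31 and 31 in monoculture hypoxia, 51 and 53 in co-culture normoxia, and 48 and 45 in co-culture hypoxia. Every hypoxic library lay below every normoxic library. The mean difference was −12.25 genes (−19 in monoculture and −5.5 in co-culture), with a pooled SD of 1.46 genes. In percentage points it was −18.3 for histone genes and −1.48 for all protein-coding genes.

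This difference rests in part on the very wide peaks. In an alternative chosen after seeing the data, peaks wider than 10 kb were left out before the 9812 highest peaks of each list were taken. The histone genes with a peak were then 47 and 47 in monoculture normoxia, 31 and 31 in monoculture hypoxia, 49 and 39 in co-culture normoxia, and 48 and 45 in co-culture hypoxia. The mean difference was −6.75 genes (pooled SD 3.69), or −10.1 percentage points against −1.33 for all protein-coding genes. By culture it was −16 in monoculture and +2.5 in co-culture, so the lower count in hypoxia held in monoculture, while in co-culture the direction turned and the libraries overlapped. The library that moved most, from 53 to 39 genes, was co-culture normoxia replicate 2, where a gene covered by the 245358 bp peak alone is counted as having none.

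At equal number, 19 of the 67 histone genes (28.4%) had a peak in both monoculture normoxia lists and in no monoculture hypoxia list, against 2.77% of protein-coding genes. Histone genes also had peaks more often to begin with. Of the 46 histone genes with a peak in both normoxic lists, 19 (41.3%) were absent from both hypoxic ones, against 606 of 3669 protein-coding genes (16.5%). The 19 genes rest on 13 distinct peaks in each normoxic list. They were 2 H1 genes (H1f2 and H1f3), 5 H2A, 4 H2B, 3 H3 and 5 H4 genes, and none was gained (1.1% of protein-coding genes). Without peaks wider than 10 kb, 15 were lost (22.4%, against 2.6% of protein-coding genes), and H2bc23, H2ac23, H4c17 and H4bc24 were no longer among them. The lost share of genes present in both normoxic lists was then 36.6% for histone genes and 15.9% for all.

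In co-culture at equal number, 6 histone genes were lost (8.96%, against 1.76% of protein-coding genes) and 1, H2ac19, was gained (1.98%). Among genes present in both normoxic lists, the lost share was 13.6% for histone genes and 7.85% for all. Over both cultures, H2ac10, H3c8, H1f3, H4c4 and H1f2 were in all 4 normoxic lists and in no hypoxic list (7.46%, against 0.503% of protein-coding genes), and none the reverse (0.0777%), with H2ac10 and H3c8 on a shared peak. Without peaks wider than 10 kb the same 5 genes were those lost in co-culture (7.46%, against 1.74% of protein-coding genes) and over both cultures (7.46%, against 0.489%). These 5 genes still had a peak in all 8 lists as deposited, so the comparison shows a lower place in the hypoxic lists and not a closed site. By class at equal number, the genes with a peak in monoculture went from 9 and 11 in normoxia to 3 and 4 in hypoxia for H4, from 14 and 11 to 9 and 8 for H2A, from 16 and 15 to 12 and 11 for H2B, from 8 and 8 to 5 and 6 for H3, and from 4 and 4 to 2 and 2 for H1. Each class was lower in both hypoxic lists, beside 21.9% and 21.6% against 19.1% and 17.3% of all protein-coding genes.

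Ranks within a fixed set of genes remove list length in another way. The 3801 protein-coding genes with a peak in all 8 libraries, 43 of them histone genes, were ranked in each library by −log10 p, and the ranks, as normal scores (SD units), were tested with limma. Across both cultures 302 genes were higher in hypoxia (7.95%) and 348 lower (9.16%) at an adjusted p of at most 0.05. Of the histone genes 7 were lower (16.3%) and none was higher, and the share changed in either direction was near the background of 17.1%. The 7 genes rest on 5 peaks. That no histone gene was higher did not hold under every alternative: 2 were higher and none lower by fold rank, 5 higher and 3 lower without co-culture normoxia replicate 1, 3 higher and 7 lower without monoculture normoxia replicate 2, and 1 higher (H1f5) and 1 lower (H1f2) without co-culture normoxia replicate 2. The median histone estimate was −0.01, with 23 below 0 and 20 above, against 0.00 for all genes, so most of the group did not move in 1 direction among these genes.

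H1f2, which encodes the linker histone H1.2, was the histone gene with the lowest estimate. Its common-set percentile (percent of the 3801 genes ranked no higher) was 39.8 and 56.1 in monoculture normoxia, 3.14 and 8.41 in monoculture hypoxia, 42.1 and 40.9 in co-culture normoxia, and 14.7 and 5.14 in co-culture hypoxia. All hypoxic libraries lay below all normoxic ones, in both cultures. The estimate was −1.35 ± 0.22 (SE), with an adjusted p of 0.00621. It also passed within monoculture (−1.57 ± 0.30, limma adjusted p = 0.0445) and within co-culture (−1.13 ± 0.30, adjusted p = 0.0461). Ranked by fold enrichment in place of −log10 p, the estimate was −0.36 and did not pass (adjusted p = 0.248).

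H2ac23 and H4c17 share a peak and had common-set percentiles of 40.7 and 54.1 in monoculture normoxia, 17.2 and 3.25 in monoculture hypoxia, 69.6 and 88.0 in co-culture normoxia, and 33.0 and 41.9 in co-culture hypoxia. Within each culture, hypoxia was lower in both libraries, although the ranges over the cultures overlap. The estimate was −1.25 ± 0.25 (limma adjusted p = 0.0106). Their best peak was 34607 bp wide in monoculture normoxia replicate 1, and 14484 and 245358 bp in co-culture normoxia. It was 3177 bp in monoculture normoxia replicate 2 and 458 to 2487 bp in the hypoxic libraries. Peaks over 10 kb were thus read in normoxia only, and the part of width in the estimate was not tested. Without such peaks neither gene could be fitted. Over the alternatives the adjusted p ran from 0.000339 to 0.102, and the call ended without co-culture normoxia replicate 2, without co-culture hypoxia replicate 1, ranked by fold enrichment (adjusted p = 0.0522) and by list percentile (0.102). H4c17 is a near copy of H4c18.

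The other called H4 genes were H4c11 and H4f16. H4c11 was at 50.3 and 72.1 in monoculture normoxia, 22.0 and 18.4 in monoculture hypoxia, 47.2 and 51.2 in co-culture normoxia, and 43.3 and 16.2 in co-culture hypoxia (−0.85 ± 0.23, limma adjusted p = 0.0302), with no overlap between oxygen levels. H4f16, the lone gene of chromosome 6, was at 35.5 and 62.0, 22.2 and 5.64, 55.1 and 49.8, and 31.2 and 38.2 in the same order (−0.80 ± 0.24, adjusted p = 0.0406). The co-culture hypoxia value of 38.2 overlapped the monoculture normoxia value of 35.5. In co-culture normoxia replicate 2 the best peak of H4c11 was 17233 bp wide and shared with H4c12, and H4c11 could not be fitted without such peaks. With 1 library left out, the H4c11 call held only without monoculture normoxia replicate 1 (adjusted p 0.0114 to 0.578 over all alternatives). That of H4f16 held only without replicate 1 of monoculture normoxia or of monoculture hypoxia (0.0156 to 0.833). Both calls also ended when ranked by fold enrichment or by list percentile, and that of H4f16 with the replicate block.

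H2bc6 and H1f4, which encodes linker histone H1.4, share a peak at 66.1 and 79.8 in monoculture normoxia, 74.0 and 54.7 in monoculture hypoxia, 92.3 and 75.2 in co-culture normoxia, and 50.4 and 29.3 in co-culture hypoxia. The groups overlapped in monoculture and were apart in co-culture. The estimate was −0.78 ± 0.24 (limma adjusted p = 0.0476), and by culture −0.24 (adjusted p = 0.724) in monoculture and −1.32 (adjusted p = 0.0420) in co-culture. The difference between cultures did not pass (−1.08 ± 0.49, adjusted p = 0.428), and with 1 library left out the oxygen call held only without monoculture normoxia replicate 1 (adjusted p 0.00519 to 0.332 over all alternatives). It also ended by fold rank, by list percentile and among genes with a peak in at least 4 libraries, and for H2bc6 with a window of 5 kb.

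Just short of the threshold lay the top peak of H4c18 and H2ac24 (−0.76 ± 0.24, limma adjusted p = 0.0507), with all hypoxic libraries (65.8 to 81.1) below all normoxic ones (83.9 to 96.9). Including it, 4 of 43 histone genes ranked lower in every hypoxic library (9.3%), close to 8.89% of the 3801 genes, and none ranked higher in every one (7.55%). By class, the median estimate was −0.71 for the 4 H1 genes (−1.35 to 0.27), −0.51 for the 9 H4 genes (−1.25 to 0.50), −0.01 for 11 H2A (−1.25 to 0.52), 0.21 for 13 H2B (−0.78 to 0.63) and 0.40 for 6 H3 genes (−0.44 to 0.63), so each class held estimates of both signs. Among the H1 genes, H1f4 was read at the peak beside the H2bc6 start site, and the co-culture normoxia replicate 2 value of H1f5 is that of the 245358 bp peak. Of the H3 genes, H3c13, H3c7 and H3c3 shared their peak with an H2B gene, H3c8 with H2ac10 and H3c1 with H4c1. The H2A genes H2ac23 and H2ac24 shared theirs with the H4 genes H4c17 and H4c18. The class medians are therefore not values of separate sites. The highest estimates belonged to H3c13 and H2bc18, which share a peak (0.63 ± 0.30, adjusted p = 0.161).

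**Figure D3:**
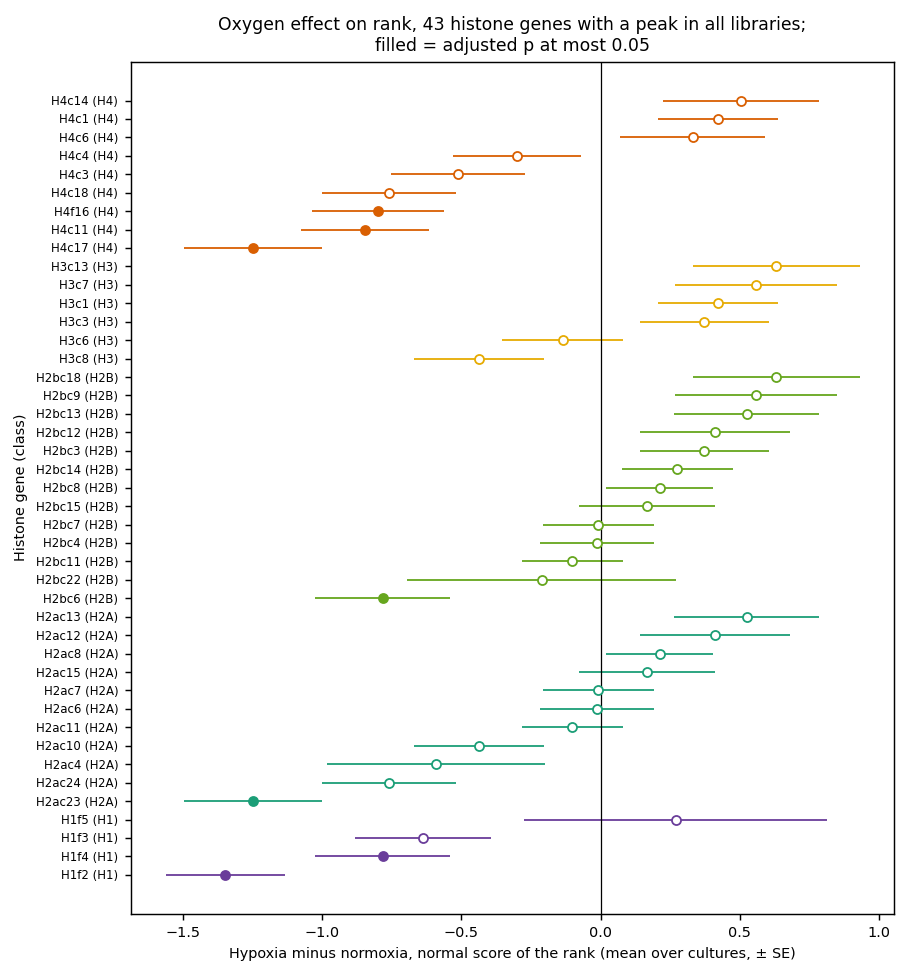
Estimated oxygen effect (hypoxia minus normoxia in normal-score units, horizontal axis, mean over cultures with SE bars) for each of the 43 histone genes with a peak in all libraries, grouped and coloured by class; filled points have a limma adjusted p of at most 0.05. All filled points lie left of 0, from −1.35 for H1f2 to −0.78 for H2bc6 and H1f4.

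**Figure D4:**
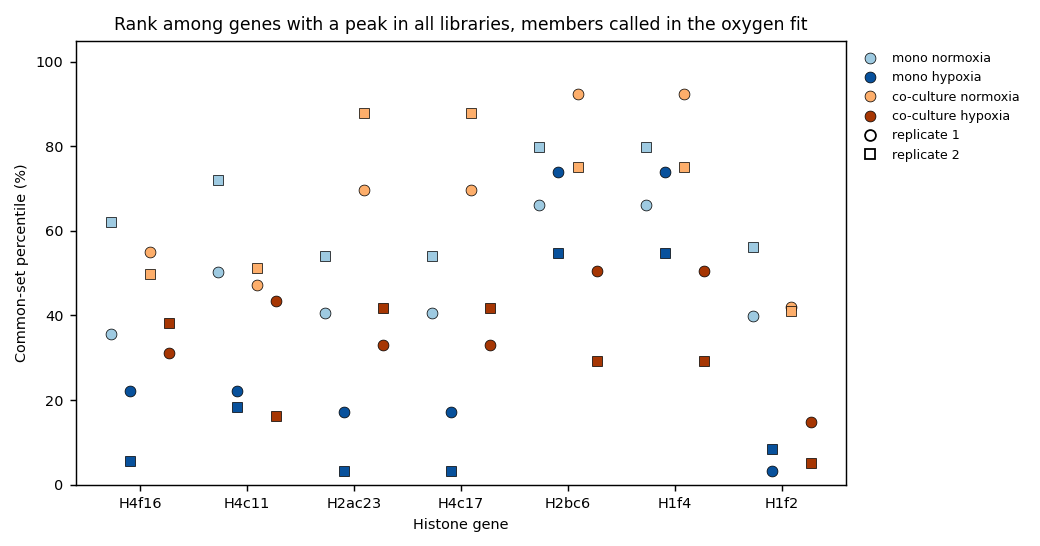
Common-set percentile (vertical axis) of the 7 histone genes called in the oxygen comparison, 1 point per library, coloured by group, with circles for replicate 1 and squares for replicate 2. For H1f2 the 4 hypoxic points lie between 3.14 and 14.7, below the normoxic points at 39.8 to 56.1.

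The second comparison asks what the glioma cells change. Co-culture libraries had a peak at 6.75 more histone genes than monoculture (+8 in normoxia and +5.5 in hypoxia, pooled SD 4.11), or 10.1 percentage points, beside 11.1 points for all protein-coding genes. In lists of equal number the difference was 8.75 genes (2 in normoxia and 15.5 in hypoxia, pooled SD 1.46), or 13.1 points against 6.10. At equal number without peaks wider than 10 kb, the alternative chosen after seeing the data, it was 6.25 genes. This was −3 in normoxia and 15.5 in hypoxia (pooled SD 3.69), or 9.33 points against 6.02. In the deposited lists without such peaks it was 4 genes. No histone gene separated all 4 co-culture from all 4 monoculture libraries in the deposited lists, against 1.22% of protein-coding genes gained and 0% lost. At equal number H2aw was gained (1.49%, against 0.653%) and none was lost (0.0183%).

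In normoxia, co-culture gained H2ac18, H3c14, H2aw and H3c10 (5.97%, against 8.85% of protein-coding genes), and in hypoxia H2bu2, H4c12 and H4c8 (4.48%, against 3.71%). None was lost in normoxia (background 0.0183%) or in hypoxia (0.329%). At equal number, H2aw and H3c10 were gained in normoxia (2.99%, against 2.32%) and none was lost (0.466%), while 12 histone genes were gained in hypoxic co-culture (17.9%, against 4.98%) and none was lost (0.429%). As a share of genes present in both hypoxic co-culture lists, these were 27.3% of histone genes and 22.0% of all protein-coding genes. In the rank comparison limma called 46 genes higher (1.21%) and 94 lower (2.47%) in co-culture, 3.68% in all, and no histone gene, with 3 at an unadjusted p under 0.05 and a lowest adjusted p of 0.0512 for H2ac23 and H4c17 (0.99 ± 0.25).

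H2ac7 and H2bc7, a divergent pair on 1 peak, had common-set percentiles of 8.76 and 8.97 in monoculture normoxia, 9.02 and 10.2 in monoculture hypoxia, 29.4 and 11.7 in co-culture normoxia, and 19.3 and 16.2 in co-culture hypoxia. All co-culture libraries were above all monoculture ones, which held for 2 of 43 histone genes (4.65%) and 2.39% of the 3801 genes, while none was below in all (3.81%). The estimate was 0.43 ± 0.20 (limma adjusted p = 0.232) and did not pass. Of 10 glial and glioma marker genes, none had a peak in any monoculture library, beside 21.6% to 36.7% of all protein-coding genes. Gfap, Olig1, Olig2, Sox10, Pdgfra and Cspg4 had none in any library. In the co-culture libraries 2, 1, 3 and 2 of the 10 had one (Sox2, Nes, S100b and Slc1a3), below the 39.0% to 43.9% of all protein-coding genes. Their part in the co-culture values was not tested, and fewer cells with an open site cannot be told apart here from less opening per cell.

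Whether the oxygen effect differed between cultures was tested as an interaction. No gene passed in limma (437 of 3801 at an unadjusted p under 0.05), and no histone gene did (8 at an unadjusted p under 0.05, lowest adjusted p 0.385). Ranks lower in both hypoxic monoculture libraries and higher in both hypoxic co-culture libraries than in the matching normoxic ones were seen at 6 of 43 histone genes (14%), which rest on 3 shared peaks, and at 2.74% of the 3801 genes. The reverse was seen at none, against 2.97%.

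The peaks of most H1 genes, and of some core histone genes, had their summits at the 3′ side of the gene. At most core histone genes a summit, the point of highest signal in a peak, lay near the start site in at least 1 library. Counting a gene when any of its peaks had a summit within 300 bp of the start in every library, these were 6 of 18 H2A, 8 of 16 H2B, 2 of 10 H3 and 4 of 12 H4 genes, and in at least 1 library 14, 13, 7 and 11. For H1 it was 0 of 6 in every library, while H1f2 and H1f4 each had such a summit in 1 library. A summit of any peak past the gene's 3′ end by at most 1 kb was found in at least 1 library at 4 of 6 H1, 6 of 18 H2A, 2 of 16 H2B, 2 of 10 H3 and 5 of 12 H4 genes. In every library it was found at 3 H1, 1 H2A and 1 H3 gene and at no H2B or H4 gene. Shares over all protein-coding genes were not counted for these measures, and in dense clusters such a summit can be a neighbour's. For best peaks up to 10 kb wide, 67.3% of histone summits lay within 300 bp of the start site, against 75.3% of those of all protein-coding genes. The 3′ pattern was noticed in these data and is given as a description. The distances that follow are those of the best peak alone.

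At H1f2 the summit of the best peak lay 880 to 992 bp downstream of the start site in all 8 libraries, which is 155 to 267 bp past the annotated 3′ end. At H1f3 it lay 1073 to 1264 bp from the start (297 to 488 bp past the end), and at H1f5 906 to 1191 bp in 7 libraries (112 to 397 bp past the end). The nearest start site of another histone gene was 5722 to 5834 bp away for H1f2, 4437 to 4628 bp for H1f3 and 3678 to 3963 bp for H1f5. The values of these H1 genes above are thus those of a site at the 3′ side of each gene, away from the promoter sequence printed for H1f2. The same holds for other genes that ranked lower in hypoxia. In the 5 libraries where the shared peak of H2ac23 and H4c17 was at most 10 kb wide, its summit lay 1852 to 1916 bp from the H2ac23 start and 473 to 537 bp from the H4c17 start, past the end of both genes. At H4c11 it lay 416 to 509 bp from the start in 6 of 7 libraries, past the end in 5, and 137 bp in the other. At H4f16 it ranged from −69 to 441 bp and was more than 300 bp downstream in 3 of 8 libraries. In these libraries the ranks of H2ac23, H4c17 and H4c11 are therefore those of peaks with a summit outside the promoter sequences printed for them. In the other libraries they are those of intervals over 10 kb wide. In monoculture hypoxia replicate 1 the H1f2 peak ran from 23739612 to 23740631 on chromosome 13 and did not reach the gene, which ends at 23739531.

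The peak of H1f4 was different, since its summit, 338 to 587 bp past the 3′ end, lay 95 to 344 bp from the start site of H2bc6. The peak of the testis-specific H1f6, in 4 libraries, lay 0 to 93 bp from the start site of H4c3. Of 34 histone genes whose best peak was at most 10 kb wide in all libraries, 30 had a promoter entry that gives a start site and strand (H4c14, H3c7, H2bc4 and H3c1 had none). Of these 30, 5 had a summit more than 300 bp downstream of the start in each (H1f2, H1f3, H1f4, H3c13 and H2ac10), or 16.7%, against 6.19% of 3102 protein-coding genes chosen the same way. As for H1f4, the summits of H3c13 and H2ac10 lay at a neighbour's start site, 25 to 147 bp from that of H2bc18 and 55 to 179 bp from that of H3c8, which leaves H1f2 and H1f3 as the 2 of these 5 away from any other histone start site. The median distance of the summit from the start site over these 30 genes was −77.5 to 21 bp by library, and −76 to −65 bp over all 3102.

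**Figure D5:**
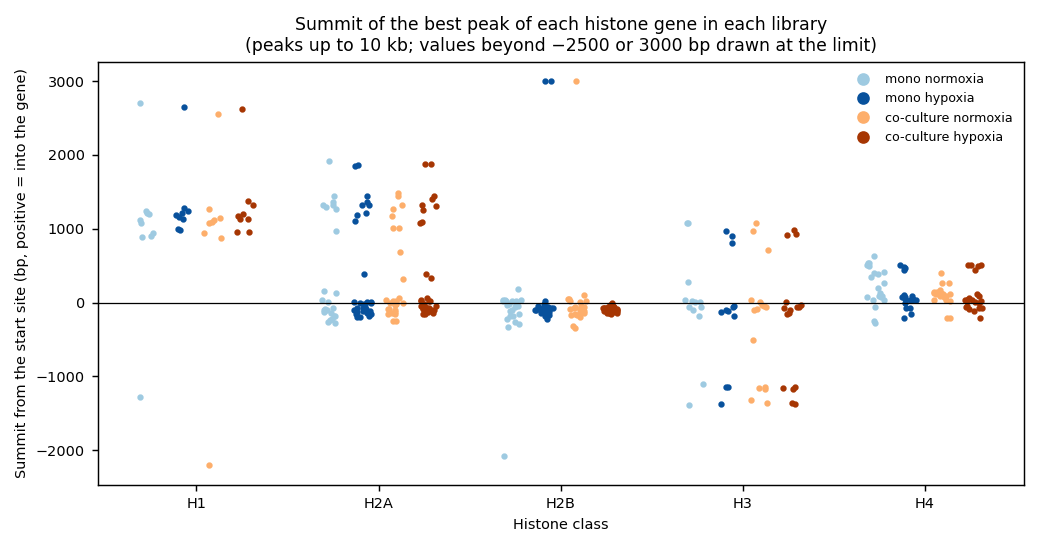
Distance in bp from the start site to the summit of the best peak (vertical axis, positive into and past the gene) for each histone gene and library, by class and coloured by group, with peaks up to 10 kb wide and values beyond −2500 or 3000 bp drawn at the limit. Most H1 summits sit near 1000 bp or beyond, while most of H2B gather at the start site.

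Genes that serve histone expression and DNA replication were read from lists beside the histone genes. Of 20 genes for histone gene expression, 14 to 19 had a peak per library, and of 13 ranked, Yy1, a zinc finger factor, was lower in hypoxia (−1.01 ± 0.21, limma adjusted p = 0.0128) and none was higher. Of 24 replication genes, 20 to 24 had a peak, and of 19 ranked, Cdt1 and Gins2 were higher (0.75 and 0.68, adjusted p = 0.0480 and 0.0334) and Gins1 was lower (−0.83, adjusted p = 0.0157). Of 12 hypoxia response genes, 3 to 11 had a peak and none of 3 ranked was called. Over all 3801 genes 17.1% were called, so the 1 of 13 and 3 of 19 called here are not above the background, and 21.6% to 43.9% of all protein-coding genes had a peak per library.

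As a check of the cell label, 3 to 6 of 10 microglia and leukocyte marker genes had a gene-end peak per library. Ptprc, which encodes CD45, Cx3cr1 and Fcgr3 had one in all 8, and Csf1r, Aif1 and Itgam had none. Cx3cr1, a chemokine receptor of microglia, had list percentiles of 50.2, 0.575, 57.7, 70.9, 12.6, 47.3, 82.6 and 57.5 in the library order used above, and its rank was higher in hypoxia (1.45 ± 0.43, limma adjusted p = 0.0424). The part of this in the histone gene values was not tested. The gene-end peaks of these lists therefore show part of the microglial marker set.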

How the data were processed

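ATAC-seq peak lists of 8 libraries (4 groups, 2 biological replicates each) were used, 1 list per library. The submitters' processing notes name Trimmomatic 0.36, HISAT2 2.1.0, Picard, SAMtools, deepTools, MACS2 2.1.1.2 and the build mm10, with no settings, so the shift for Tn5 and the treatment of reads with several placements are not given in the sources used here. The authors deposited for each peak a fold enrichment (a ratio to the library's own background), the −log10 of its p and of its q, a score and the summit as an offset in bp. The lowest deposited −log10 q per list was 2.00 to 2.08. These values are the authors' own for each list and were used only within a list; the score was not used.

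Genes came from the RefSeq table of GRCm38.p6, matched by symbol, with strands from its promoter table. Presence was any overlap with 1 kb around either gene end. Ranks were tested with limma 3.58.1 (R 4.3.3; 4 group means, 4 residual df, Benjamini-Hochberg over 3801 genes), after a check on simulated data; tables were made with Python 3.11.15 and pandas 2.3.3. The samples' number limits precision, and depth is unknown. Adjusted p-values weigh a difference between groups against the spread between replicates, which the labels call biological and which are cultures of 1 cell line. Members and lists were chosen with earlier results of these data known. Genes named are those called by a test, the 2 of each class with the highest lowest percentile, genes with a peak of their own in 1 to 7 libraries, and those with none; H2ac7, H2bc7, H4c18 and H2ac24 as a pattern of ranks, the summit positions and the shares among genes already present were chosen after their values were seen. Of 21 listed factors of histone gene expression 20 matched. Alternatives were other windows, summits, stricter or equal-number lists, no wide peaks, other ranks, a replicate block and leaving out each library; equal-number lists without wide peaks were added after seeing the data. The replicate numbers were not used to pair the libraries, save in the replicate block.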

Additional observations from a re-analysis of the deposited data

Results flagged for a closer look

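At 3 shared peaks every library moved 1 way with hypoxia in monoculture and the other way in co-culture. For H3c13 and H2bc18 the common-set percentile was 53.3 and 52.7 in normoxia and 45.0 and 49.5 in hypoxia in monoculture, and 47.5 and 4.45 against 73.1 and 66.6 in co-culture. The interaction estimate was 1.55 (limma adjusted p = 0.385), and the low value of 4.45 is that of co-culture normoxia replicate 2. For H2ac6 and H2bc4 the monoculture values were 67.0 and 63.3 against 56.9 and 33.9, and the co-culture values 68.2 and 50.9 against 76.1 and 77.6, with an interaction estimate of 1.00 (adjusted p = 0.405). H2ac11 and H2bc11 went from 60.2 and 53.3 to 41.6 and 32.2 in monoculture and from 33.6 and 30.3 to 40.1 and 46.9 in co-culture, with an interaction estimate of 0.81 (adjusted p = 0.428). None of the 3 passed the test of the difference. The same pattern was seen at 2.74% of the 3801 ranked genes, and no gene passed the interaction test.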

How the results depend on the processing

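None of the 7 histone genes called for oxygen changed direction under any alternative that gave it a value. The hypoxia minus normoxia difference in genes with a peak, −0.75 in the main count, was 4 without peaks over 10 kb, 2.5 by summit and 3.25 with 5 kb. It was −1.5 with 500 bp, 0.25 at −log10 q of at least 5 and −12.25 at equal number. At equal number without wide peaks (an alternative added after seeing the data) it was −6.75, and with 1 library left out −3 to 1.5. The co-culture difference of 6.75 genes was 4.5 to 9 with 1 library left out, 4 without wide peaks, 4 by summit and 3.75 with 5 kb. Genes gained in hypoxia in monoculture were 2 by summit, 2 with 500 bp, 4 with 5 kb, 2 at −log10 q of at least 5, 0 at equal number and 1 to 5 leaving out a library; genes lost were 2, 0, 3 and 19 with 500 bp, 5 kb, the stricter q and equal number, and 1 to 5. In co-culture, hypoxia gained 2 without wide peaks, 1 at equal number and 0 to 1 leaving out a library, and lost 1 with 500 bp, 6 at equal number and 0 to 5. Over both cultures 5 were lost at equal number. At equal number without wide peaks, hypoxia gained 0 and lost 15 in monoculture, gained 4 and lost 5 in co-culture and lost 5 over both, and co-culture gained 1 over both oxygen levels, gained 2 and lost 1 in normoxia and gained 12 in hypoxia. Co-culture gained 1 at equal number and 0 to 1 leaving out a library; in normoxia it gained 2 by summit, 2 at equal number, 2 as merged regions and 4 to 10, and lost 0 to 1; in hypoxia it gained 1 with 5 kb, 12 at equal number and 3 to 6, and lost 1 by summit, 1 with 500 bp and 0 to 2.

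The oxygen comparison called 63 genes by fold rank, 1005 with genes in at least 4 libraries, 260 by list percentile and 107 to 934 leaving out a library. Its histone genes were 4 without wide peaks and 4 at equal number, all lower, 2 by fold rank (H2ac12 and H2bc12, both higher), 1 by list percentile (H1f2, lower) and 1 (without co-culture hypoxia replicate 1, lower) to 10 (without monoculture normoxia replicate 2, 7 lower and H2ac21, H2ac20 and H2bc21 higher). Without co-culture normoxia replicate 1 they were 3 lower and 5 higher (H4c14, H3c13, H2bc18, H2bc9 and H3c7), and without co-culture normoxia replicate 2, H1f2 was lower and H1f5 higher. The culture comparison called 82 genes without wide peaks, 222 with 5 kb, 3 at equal number, 14 by fold rank, 254 with at least 4 libraries, 805 by list percentile, 320 with trend and robust and 0 to 315 leaving out a library, with 1 histone gene at 500 bp, 3 at 5 kb, 2 by fold rank, 10 by list percentile and 2 with trend and robust. By list percentile, 77.7% of oxygen calls were higher (46.5% by common rank) and 98.1% of culture calls (32.9%). The interaction called 3 genes by summit, 3 with 500 bp, 1 by fold rank, 11 with trend and robust and 0 to 11 leaving out a library. With the replicate block, culture called 80 genes and oxygen 620, 8 of them histone genes: H4f16 was not called, and H4c18 and H2ac24 were. The deviations of same-numbered libraries correlated at −0.05 to 0.11, so little pairing by number was seen. Whether same-numbered libraries were run together is not known. H1f2 was called in 17 of 18 alternatives that gave it a value, where fold rank ended the call. With 1 library left out, the lone library of its group is assumed to vary like the other groups. Fewer samples or genes enter several of these fits; other causes were not tested. Depth is unknown, so a missing peak is no sign of closed chromatin.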
